A study of Mus musculus with 6 samples.

Results

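The circadian clock genes measured here were 9 of a list of 10: Arntl, Clock, Per1, Per2, Cry1, Cry2, Nr1d1, Nr1d2, Dbp and Bhlhe40. The list was written for this comparison, with earlier results of these data known. Each gene was represented by its brightest probe set among those that carry exactly 1 gene symbol, out of 22180 genes with such a probe set. Per2 was not analysed, because its only probe set also carried the symbol of another transcript. All 9 others were bright enough to be tested and had 1 such probe set each. For Cry2, a further probe set also carried another symbol and was not analysed. The RNA came from CD4+ T cells of OT II transgenic mice aged 12 to 16 weeks, whose T cell receptor recognises an ovalbumin peptide. Splenic and lymph node T cells, purified by depletion of other cells, were cultured for 72 hours with antigen-presenting cells and 0.1 uM of the peptide, and CD4+ cells were purified again before lysis. The control group (3 arrays) was kept in RPMI-1640 with 10% dialyzed FBS, and the low arginine group (3 arrays) in the same medium holding 1% of the normal arginine (12 uM). The comparison asks which transcripts differ between stimulated T cells with and without a normal arginine supply. The study text names 6 mice and does not say which animals went into which array, so p-values measure the spread between these arrays. Arrays are called here by group and replicate number.

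The molecular clock is a transcriptional feedback loop that runs in most cells, lymphocytes included. A dimer of Arntl (also called Bmal1) and Clock binds E-box motifs and switches on the Per and Cry genes, whose proteins return to the nucleus and inhibit that dimer. In a second loop the nuclear receptors Nr1d1 and Nr1d2 (REV-ERB alpha and beta) repress Arntl at ROR elements, while Dbp drives D-box genes as an output arm, opposed by the repressor Nfil3. Bhlhe40 (DEC1) is an E-box repressor that is strongly induced by T cell activation. All arrays came from 1 time after stimulation, so a shift of phase and a change of mean level cannot be told apart. In bulk RNA, fewer cells expressing a gene and less RNA per cell cannot be told apart either.

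The letters these factors read can be shown for the genes the results turn on. RefSeq promoter windows (build GRCm38.p6, 250 bases before to 50 after a transcript start) were found for 8 of the 10 genes. The windows below belong to both clock genes that rose, Nr1d2 and Cry1, to Per1 and Arntl, which carry the other matches among the clock genes, and to Nfil3, the clock-related repressor with the largest fall. Capitals mark matches on either strand to the E-box CACGTG, the D-box TTATGNAA, the ROR element TAGGTCA, the cyclic AMP response element TGACGTCA and the amino acid response element TGATGNAAT. Nr1d2 lies at chr14:18239057-18239356 (minus strand), Cry1 at chr10:85185005-85185304 (minus strand), the first start of Per1 at chr11:69098699-69098998 (plus strand), the second start of Arntl at chr7:113207261-113207560 (plus strand) and Nfil3 at chr13:52980990-52981289 (minus strand).
Nr1d2: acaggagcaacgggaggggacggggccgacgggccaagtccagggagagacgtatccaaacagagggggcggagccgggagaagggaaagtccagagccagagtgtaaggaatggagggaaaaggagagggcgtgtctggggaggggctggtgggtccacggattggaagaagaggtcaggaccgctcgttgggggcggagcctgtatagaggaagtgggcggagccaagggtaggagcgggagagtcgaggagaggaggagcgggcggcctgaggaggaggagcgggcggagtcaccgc
Cry1: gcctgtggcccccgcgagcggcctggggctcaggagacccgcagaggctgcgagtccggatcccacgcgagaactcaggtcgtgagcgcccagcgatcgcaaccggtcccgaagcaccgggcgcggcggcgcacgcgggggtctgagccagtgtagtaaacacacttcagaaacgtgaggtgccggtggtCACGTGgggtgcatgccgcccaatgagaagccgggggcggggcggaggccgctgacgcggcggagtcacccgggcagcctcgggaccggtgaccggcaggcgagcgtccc
Per1: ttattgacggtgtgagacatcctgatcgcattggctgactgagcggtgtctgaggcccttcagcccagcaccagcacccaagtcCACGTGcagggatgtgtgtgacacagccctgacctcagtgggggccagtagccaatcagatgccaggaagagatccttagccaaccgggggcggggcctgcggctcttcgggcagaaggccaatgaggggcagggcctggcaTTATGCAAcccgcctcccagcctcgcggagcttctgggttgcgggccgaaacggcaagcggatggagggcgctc
Arntl: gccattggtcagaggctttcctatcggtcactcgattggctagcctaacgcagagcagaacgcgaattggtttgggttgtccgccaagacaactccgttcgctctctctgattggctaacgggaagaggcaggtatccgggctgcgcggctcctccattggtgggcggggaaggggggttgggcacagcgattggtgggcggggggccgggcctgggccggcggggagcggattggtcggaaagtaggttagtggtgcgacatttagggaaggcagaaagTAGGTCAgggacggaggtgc
Nfil3: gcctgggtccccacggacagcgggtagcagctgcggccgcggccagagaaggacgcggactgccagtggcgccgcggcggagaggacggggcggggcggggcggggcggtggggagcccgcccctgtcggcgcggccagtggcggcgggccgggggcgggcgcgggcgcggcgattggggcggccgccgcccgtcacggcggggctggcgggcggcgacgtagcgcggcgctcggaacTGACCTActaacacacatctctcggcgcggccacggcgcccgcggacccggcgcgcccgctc
The E-box stood in the windows of Cry1 (bases -60 to -55 from the start) and Per1 (-166 to -161), 2 of the 12 windows that these 8 clock genes have, and in 7.15% of all 32851 windows of the same length. Per1 also held the D-box, at -24 to -17, which 3.38% of windows held. Arntl held the ROR element at bases 30 to 36 after its second start, and Nfil3 held it at -12 to -6 on the opposite strand, against 2.61% of windows. No match to the cyclic AMP response element (1.79% of windows) or the amino acid response element (0.965%) was found in the windows of the 8 clock genes, and the window of Nr1d2 held none of the 5 motifs. The amino acid response element shares the letters ATGNAA with the D-box but cannot match at the same place. These are matches of letters in short windows, not measured binding sites.

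**Figure D1:**
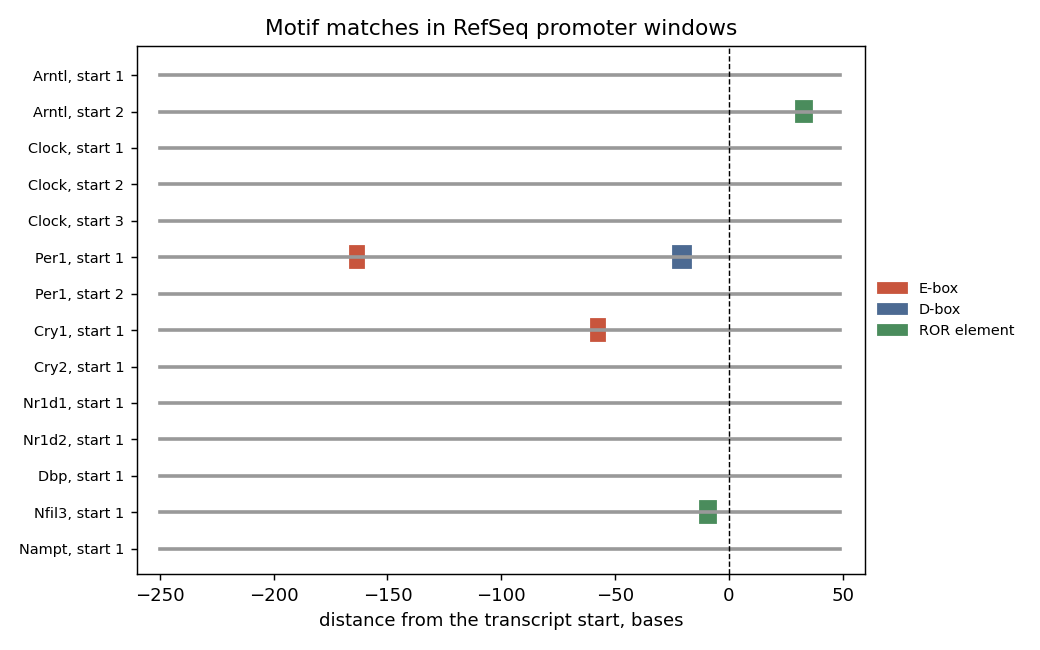
Motif matches in the RefSeq promoter windows of 8 clock genes and of Nfil3 and Nampt, 1 line for each transcript start, with the distance from that start in bases on the x axis and coloured boxes for matches. Matches stand in 1 window each of Arntl, Per1, Cry1 and Nfil3, and Per1 is the window with both an E-box and a D-box.

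Among the clock genes, Nr1d2 and Cry1, both repressors of the loop, were higher in low arginine, and the 7 others did not pass the test. Nr1d2 rose 3.40-fold and Cry1 1.62-fold, while their closest relatives Nr1d1 and Cry2 did not pass. The clock genes and the lists used below were chosen with earlier results of these data known. Shares of their members set against all genes are therefore descriptions and do not test the lists. The count was 2 of 9 (22.2%), both upward. Among all 14787 genes tested 12.2% were called, 5.19% higher and 6.98% lower (limma, Benjamini-Hochberg adjusted p below 0.05). After centring on the 75th percentile of the arrays that split was 535 higher and 1190 lower, against 767 and 1032. The median difference of the 9 clock genes was 0.40 on the log2 scale, against 0.01 over all genes tested, and 0.15 without array 3 of the low arginine group. In all arrays together 7 of 9 had the higher mean in low arginine, against 51.6% of all genes. The 7 include Cry2 at 0.01, which changed sign in 5 of 15 alternatives, and Bhlhe40 at 0.07. The groups did not overlap for 3 clock genes (Nr1d2, Cry1 and Clock), all higher. Of all 14787 genes tested, 4766 (32.2%) did not overlap, and 2370 (16.0% of all genes tested) did so upward. Both calls ended without control array 2 and, separately, without array 3 of the low arginine group, and that of Cry1 also without array 2 of that group. Without control array 2, 3.38% of all genes were called.

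**Figure D2:**
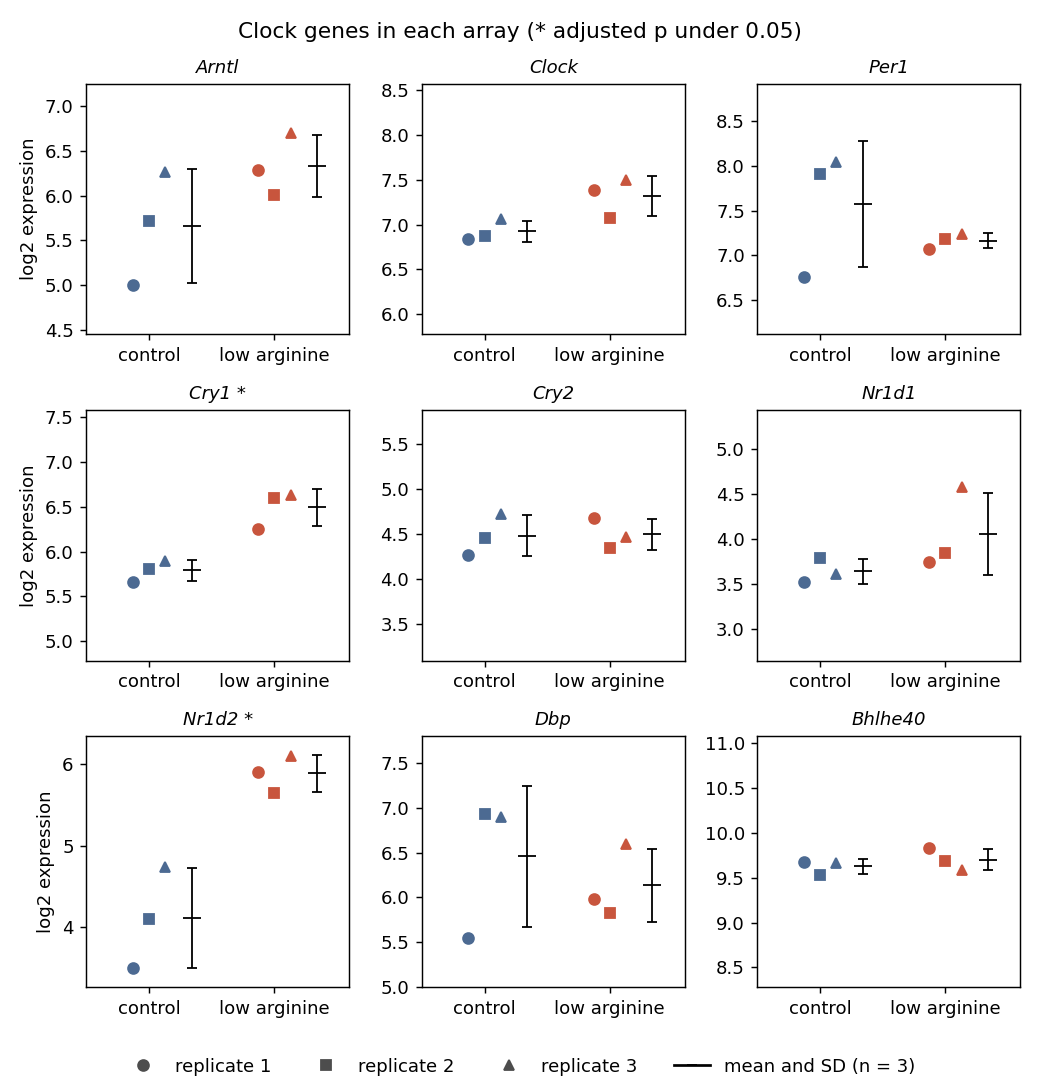
Log2 expression (y axis) of 9 clock genes in the 3 control arrays and the 3 low arginine arrays, with 1 symbol shape per replicate number and the mean and SD beside them; each panel has its own level range. Nr1d2 and Cry1 are higher in each low arginine array than in each control array, and control array 1 is the lowest array for each gene other than Bhlhe40.

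Nr1d2 (probe set 17303625), the REV-ERB beta repressor, had log2 values (base 2 being taken from the range of the deposited values) of 3.51, 4.10 and 4.74 in the control arrays and 5.90, 5.65 and 6.10 in the low arginine arrays. The lowest low arginine array lay above the highest control array. The mean went from 4.12 ± 0.61 to 5.88 ± 0.22 (SD, n = 3), a difference of 1.76 (SE 0.29, 95% interval 1.10 to 2.43, limma adjusted p = 0.0104). This was the rise with rank 30 of 14787 genes. Omitting control array 2 left a difference of 1.76 (adjusted p = 0.0543), omitting array 3 of the low arginine group 1.66 (0.0507), and omitting control array 1, the lowest, 1.46 (0.00318).

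Its relative Nr1d1 (probe set 17268884), REV-ERB alpha, had control values of 3.52, 3.79 and 3.61 and low arginine values of 3.74, 3.84 and 4.58. The groups overlapped, and low arginine array 3 stood above the other arrays. The difference was 0.41 (95% interval -0.10 to 0.92, limma adjusted p = 0.283), and 0.15 without that array. Within arrays, the change of Nr1d2 exceeded that of Nr1d1 by 1.35 (SE 0.38) on the log2 scale. That pair and the Cry pair were compared after their values had been seen. The groups did not overlap for the difference between Nr1d2 and Nr1d1, and the two-sided exact permutation test gave p = 0.1, the smallest that 3 arrays against 3 allow.

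Cry1 (probe set 17243644), a cryptochrome that inhibits the Arntl and Clock dimer, read 5.66, 5.81 and 5.90 in the controls and 6.25, 6.60 and 6.63 in low arginine. All 3 low arginine arrays lay above all controls. The mean went from 5.79 ± 0.12 to 6.49 ± 0.21 (SD, n = 3), a difference of 0.70 (SE 0.14, 95% interval 0.38 to 1.02, limma adjusted p = 0.0194). The difference stayed between 0.63 and 0.82 with any array left out, and the adjusted p reached 0.0757 when control array 2 was omitted, and 0.0891 and 0.0836 when low arginine array 2 or 3 was.

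Cry2 (probe set 17388389), the other cryptochrome, read 4.26, 4.46 and 4.72 in the controls and 4.68, 4.34 and 4.47 in low arginine. The groups overlapped completely. The difference of 0.01 (95% interval -0.34 to 0.37, limma adjusted p = 0.969) turned to -0.07 with quantile normalization, -0.02 with median centring and -0.05 with centring on the 75th percentile. The interval does not reach the rise measured for Cry1. Within arrays, the change of Cry1 exceeded that of Cry2 by 0.69 (SE 0.23), with groups that did not overlap and an exact two-sided permutation p = 0.1. These permutation p-values were not adjusted for the 2 pairs compared.

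The activators of the loop had higher means in low arginine without passing the test. Clock (probe set 17448960), the dimer partner with acetyltransferase activity, read 6.84, 6.87 and 7.06 in the controls and 7.39, 7.07 and 7.50 in low arginine. The groups came close, at 7.06 against 7.07, without overlapping. The difference was 0.40 (SE 0.14, 95% interval 0.07 to 0.73, limma adjusted p = 0.116). Arntl (probe set 17481960) read 5.00, 5.72 and 6.26 in the controls and 6.29, 6.01 and 6.70 in low arginine. Control array 3 lay inside the low arginine range. The difference was 0.67 (SE 0.31, 95% interval -0.06 to 1.40, limma adjusted p = 0.218), and it was 0.35 without control array 1 (adjusted p = 0.339). With array weights, which gave control array 2 the largest weight (5.19) and control array 1 the smallest (0.239), both Arntl (adjusted p = 0.0416) and Clock (0.0204) passed, in a fit that called 37.3% of all genes.

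Per1 and Dbp, both direct targets of the dimer in other tissues, had lower means in low arginine, and passed when control array 1 was left out or given little weight. Per1 (probe set 17251527), a period gene that also responds acutely to outside signals, read 6.76, 7.91 and 8.04 in the controls and 7.07, 7.18 and 7.24 in low arginine. Control array 1 was the lowest of all 6 arrays and the other controls the highest. With all arrays the difference was -0.41 (SE 0.31, 95% interval -1.13 to 0.31, limma adjusted p = 0.466). Without control array 1 it was -0.82 (adjusted p = 0.00282). Dbp (probe set 17477979), the D-box activator, read 5.55, 6.93 and 6.90 in the controls and 5.98, 5.83 and 6.60 in low arginine. Here too control array 1 was lowest and the other controls highest. The difference was -0.32 with all arrays (SE 0.38, 95% interval -1.21 to 0.56, limma adjusted p = 0.66) and -0.78 without control array 1 (adjusted p = 0.0385). With array weights Per1 differed by -0.71 (adjusted p = 0.00617) and Dbp by -0.76 (0.0247). Without control array 1, 2 of 9 clock genes were called lower and 2 higher, in a fit that called 22.5% of all genes, 11.0% higher and 11.5% lower.

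Control array 1 stood apart over the clock genes as a set of values. It was the lowest of all 6 arrays for 8 of 9 clock genes, each but Bhlhe40, against 20.2% of all genes tested. It lay at least 0.5 below the mean of the other controls for 4 of 9 clock genes, by 1.36 for Dbp, 1.21 for Per1, 0.99 for Arntl and 0.91 for Nr1d2, and at least 0.5 above it for 0. Over all genes tested 8.43% lay that far below and 10.3% that far above. On the second principal component, which took 22.5% of the variance, this array scored 35.2 against -8.53 and -22.3 in the other controls. For 3 of 4 tested markers of CD8 and natural killer cells this array also lay at least 0.5 below the other controls, Cd8b1 reading 6.52, 7.15 and 7.03 in the controls and 6.06, 6.47 and 6.18 in low arginine. For the fourth, Klrk1, it was the highest control, with 4.21 against 3.95 and 3.55, and the low arginine arrays lay from 2.71 to 3.07. The summed level of the 6 markers, as log2 of the summed signal, ran from 7.10 to 7.65 in the controls and from 6.66 to 6.96 in low arginine. With all arrays, all 4 tested had lower means in low arginine, and 1 (Klrk1) passed in limma by adjusted p. By unadjusted p (below 0.05) 3 of 4 were lower, where 13.9% of all genes were. All 4 were called lower without control array 1 and with array weights, the fits in which Per1 and Dbp passed. Cd8b1 differed by -0.85 in each (limma adjusted p = 0.00588 and 0.00114). Without control array 2 or low arginine array 3, 0 of 4 passed. Ncr1 and Klrb1c, which define natural killer cells, were under the limit for dim genes. The part of such cells in the Per1 and Dbp values was not tested.

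**Figure D3:**
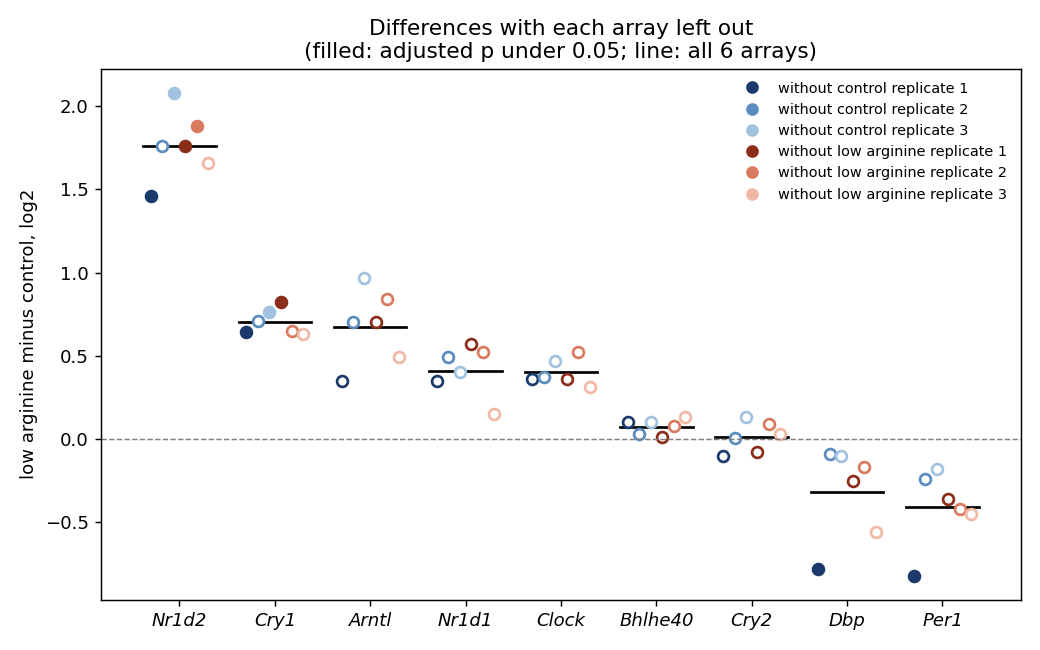
Low arginine minus control (y axis, log2) for 9 clock genes (x axis) with each of the 6 arrays left out in turn; filled points have a limma adjusted p below 0.05 and black lines show the value with all arrays. In this plot Per1 and Dbp pass without control array 1 and with no other array left out, at -0.82 and -0.78, and Nr1d2 ranges from 1.46 to 2.08.

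Bhlhe40 (probe set 17461414), the activation-induced E-box repressor, read 9.68, 9.53 and 9.67 in the controls and 9.83, 9.69 and 9.59 in low arginine. The arrays of both groups were mixed within 0.3 of each other. The difference was 0.07 (SE 0.11, 95% interval -0.19 to 0.33, limma adjusted p = 0.742), so a change of more than 1.26-fold upward or below 0.878 of the control level lies outside the interval. It was the most tightly bounded of the 9 differences, and it ranged from 0.01 to 0.15 over the 15 alternatives.

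Of the other factors listed with the clock loops, not all of them transcription factors, Nfil3 changed and the rest did not pass. Nfil3, the D-box repressor that opposes Dbp and is also induced by cytokines in T cells, read 7.89, 7.41 and 7.14 in the controls and 5.79, 5.66 and 5.55 in low arginine. Every low arginine array lay more than 1 log2 unit below every control. The difference was -1.81 (SE 0.19, limma adjusted p = 0.00281), and Nfil3 passed in all 15 alternatives (range -1.98 to -1.60). Of 14 factors listed, 13 had a probe set and 11 were tested, with 0 higher and 1 lower in limma, the same counts at an unadjusted p below 0.05 (9.09% called, against 12.2% of all genes). Their median difference was 0.04. Rora, the activator that competes with Nr1d1 and Nr1d2 for ROR elements, differed by 0.28 (95% interval -0.26 to 0.82, adjusted p = 0.509), and Ciart, a repressor of the dimer, by 0.16 (-0.15 to 0.47, 0.517). Bhlhe41, the relative of Bhlhe40, was under the limit for dim genes.

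Enzymes and cofactors that act on clock proteins gave 4 rises and 1 fall among 19 tested of 27 listed (26.3% called, against 12.2% of all genes, 5.19% higher and 6.98% lower). Their median difference was 0.17. This list too was chosen with earlier results known, so its shares set against all genes are a description. With the dimmer share of 0.5 left out, all 19 stayed in, and 16.7% of all genes were called, 7.17% higher and 9.51% lower. Crebbp, an acetyltransferase that serves the dimer as coactivator, averaged 9.05 ± 0.05 (SD, n = 3) in the controls and read 9.68, 9.68 and 9.78 in low arginine. Its groups were narrow and well apart, and the difference of 0.66 (SE 0.10, limma adjusted p = 0.00853) passed in all 15 alternatives. The histone methyltransferase Kmt2a rose by 0.69 (adjusted p = 0.0329), the NAD-dependent deacetylase Sirt1 by 0.49 (0.0292) and the ubiquitin ligase Huwe1 by 0.45 (0.0456). Hdac3, the histone deacetylase through which Nr1d1 and Nr1d2 repress, read 7.83, 7.80 and 7.62 in the controls and 7.30, 7.28 and 7.25 in low arginine. It fell by 0.47 (SE 0.11, limma adjusted p = 0.0302). The casein kinase and glycogen synthase kinase members tested (Csnk1e, Csnk2a1, Csnk2a2 and Gsk3b) did not pass, Csnk2a2 being nearest with -0.57 (adjusted p = 0.0573). Omitting control array 2, or 1 of the low arginine arrays in turn, left 1 rise and 0 falls, in fits that called 3.38% to 6.73% of all genes. There were 2 rises without control array 3, and 2 rises and 2 falls after centring on the 75th percentile. Without control array 1 there were 5 rises and 2 falls, where 22.5% of all genes were called.

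By adjusted p with all arrays equally weighted, genes known as clock outputs were called about as often as all genes. Of 19 listed, 15 were tested, with 0 higher and 2 lower in limma, Nampt and Fkbp5 (13.3% called, against 12.2% of all genes, 6.98% lower). By unadjusted p (below 0.05) 2 were higher and 6 lower, where 1971 (13.3%) and 2061 (13.9%) of all 14787 genes were. The median difference was -0.26. The output list was also chosen with earlier results known, so its shares set against all genes are a description. Nampt, the rate-limiting enzyme of NAD salvage and a target of the dimer in liver, read 8.13, 8.41 and 8.02 in the controls and 7.14, 7.24 and 7.17 in low arginine. The groups were far apart and the fall of 1.00 (SE 0.13, limma adjusted p = 0.00484) passed in all 15 alternatives. Fkbp5, a cochaperone of the glucocorticoid receptor, fell by 0.53 (SE 0.11, adjusted p = 0.0219). The cell cycle kinase Wee1 differed by -0.47 (adjusted p = 0.0813) and Klf10 by 0.69 (0.055). Without control array 1, 2 outputs were higher and 6 lower (13.3% and 40.0%), in the fit that called 22.5% of all genes, 11.0% higher and 11.5% lower. With array weights 20.0% of outputs were higher and 46.7% lower, where 18.8% and 18.5% of all genes were. The count of lower outputs was 1 when control array 2, or array 2 or 3 of the low arginine group, was left out.

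**Figure D4:**
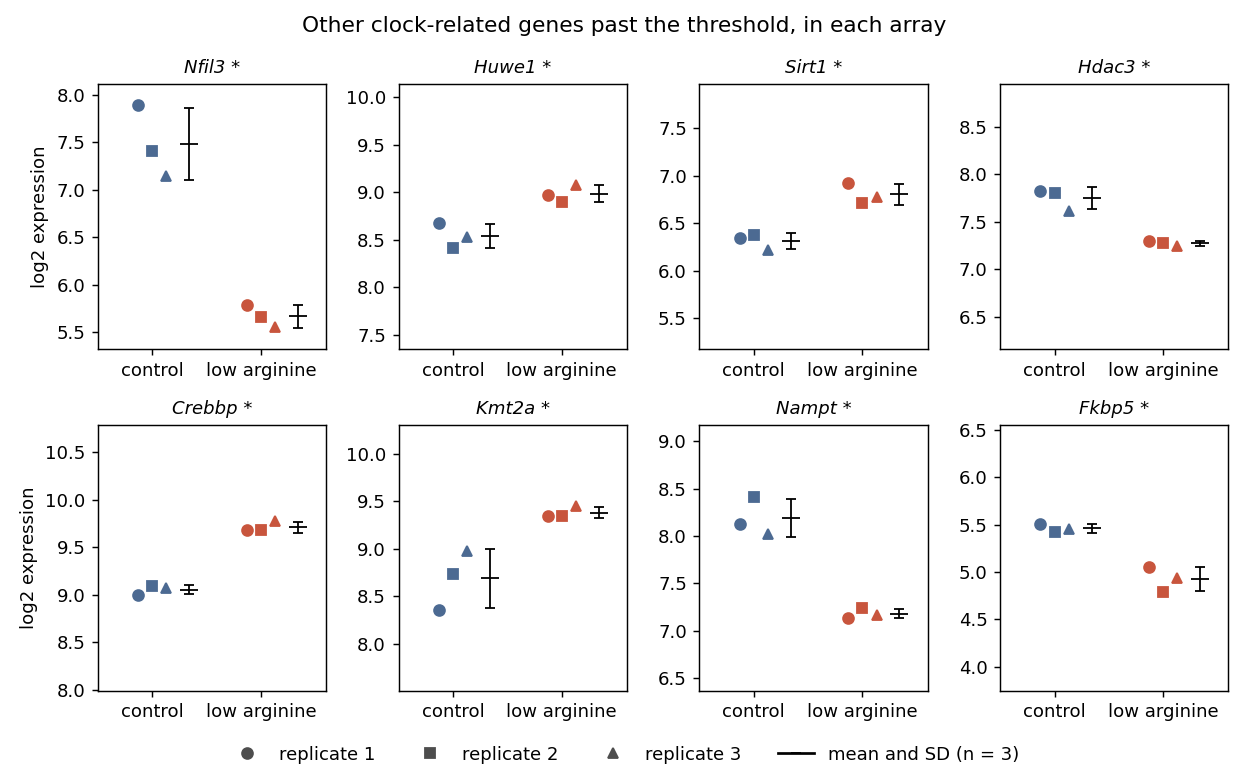
Log2 expression (y axis) in the 3 control and 3 low arginine arrays for the 8 clock-related genes outside the clock gene list that passed the test; symbols mark replicate numbers, with the mean and SD beside them, and each panel has its own level range. The groups do not overlap for any of the 8, with Nfil3, Hdac3, Nampt and Fkbp5 lower and Huwe1, Sirt1, Crebbp and Kmt2a higher in low arginine.

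**Figure D5:**
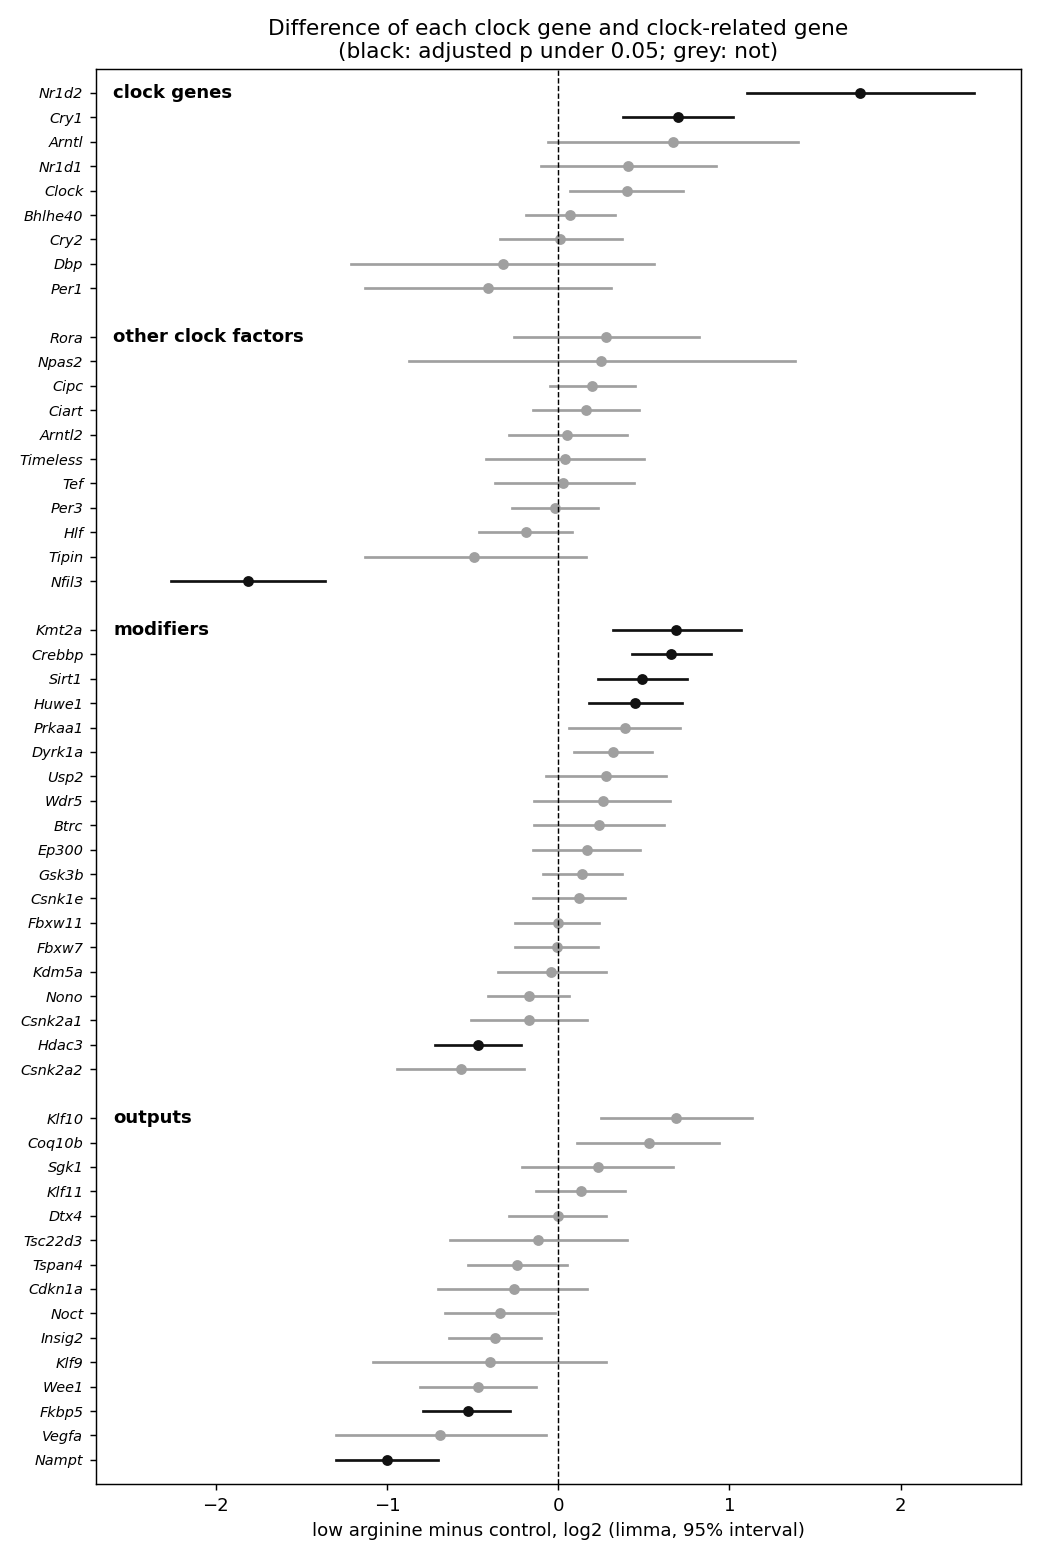
Low arginine minus control (x axis, log2) with its 95% interval from limma for each tested clock gene, other clock factor, modifier and output; black marks an adjusted p below 0.05. Nr1d2 at 1.76 and Nfil3 at -1.81 are the largest difference in each direction among the genes drawn.

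The profile of Nr1d2 over the 6 arrays, centred on its mean, was nearest to that of Snord89, a small nucleolar RNA (root mean square difference 0.135 on the log2 scale), Il6ra, the interleukin 6 receptor (0.169), and Plekha1, a phosphoinositide-binding adaptor (0.192). Il6ra read 5.49, 5.96 and 6.31 in the controls and 7.77, 7.56 and 8.23 in low arginine. The differences were 1.59 for Snord89, 1.94 for Il6ra and 1.59 for Plekha1. Since these genes were picked for their likeness to Nr1d2 over these arrays, their differences are a description and carry no test.

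Cell identity was checked by markers. None of 7 tested T cell markers passed in limma, also at an unadjusted p below 0.05 (0 of 7), Cd3e reading 10.77 ± 0.04 in the controls and 10.87 ± 0.08 in low arginine and Cd4 10.33 ± 0.12 and 10.09 ± 0.18 (SD, n = 3). Markers of B cells (7, summed 5.43 to 5.57 in controls and 5.47 to 5.55 in low arginine) and of myeloid and dendritic cells (9, 5.52 to 5.58 and 5.59 to 5.71) showed 0 calls in limma among 9 tested, and 0 at an unadjusted p below 0.05, with 7 under the limit for dim genes, and their brightest members were Cd79b (3.14 and 3.16) and Csf1r (2.67 and 2.86). The 3 neutrophil markers ran from 3.81 to 3.95 and 3.81 to 3.96, the brightest being S100a9 (2.66 and 2.64). Of 5 plasma cell markers (6.13 to 6.47 and 5.34 to 5.60), Prdm1, which activated T cells also express, fell by 1.36 (adjusted p = 0.00474, past the threshold in all 15 alternatives), and Jchain was under the limit for dim genes. All 11 markers of dividing cells had lower means in low arginine, and 10 passed in limma, Mki67 with a fall of 1.63 (adjusted p = 0.0228). Rrm2, which did not pass, differed by -1.46 (limma adjusted p = 0.0739). The summed level of the 11 markers ran from 11.94 to 11.98 in the controls and from 9.39 to 10.96 in low arginine. The count of 10 was 2 without control array 2, 8 without control array 3, and 1 and 5 without low arginine arrays 2 and 3, and Mki67 did not pass in those 4 fits (adjusted p = 0.0914, 0.0554, 0.0967 and 0.0813). The median difference of these markers ranged from -2.85 to -1.88 with 1 array left out. Low arginine array 1 was the highest of its group for Mki67, at 9.27 against 8.03 and 7.83. Among the clock genes it was the lowest of its group for Cry1, Nr1d1 and Per1, and the highest for Cry2 and Bhlhe40. It lay in the middle of its group for Nr1d2, Clock, Arntl and Dbp. Without it Cry1 differed by 0.82. The part of cell division in the clock gene values was not tested.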

How the data were processed

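The authors deposited log-scale expression values per probe set, read here as log2, for 6 single-colour Affymetrix whole-transcript arrays, and oligo is named in the submitters' processing notes. How background was corrected and arrays normalised, and which log base was used, is not given in the sources used here. Base 2 was taken from the range of the deposited values (0.956 to 12.41). Detection calls were not used. The number of arrays limits the precision.

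Of 41345 probe sets, 23521 carried 1 gene symbol, 1814 several and 16010 none. The dimmest share of 0.333 of genes (7393, mean level up to 2.48) was left out and 14787 were tested in limma 3.58.1 (R 4.3.3; lmFit and eBayes, group as the sole term, two-sided test, residual degrees of freedom 4, prior 3.69), with Benjamini-Hochberg adjustment over all genes tested and a threshold of 0.05. Differences are low arginine minus control in log2 units. Of 125 genes in the lists, 108 matched by symbol. The script was tested on simulated data.

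The clock genes and lists were chosen with earlier results of these data known. Named are all clock genes, list members past the threshold, the brightest marker of each other cell type, and the 3 genes most like the largest rise. Rora, Ciart, the kinases, Bhlhe41, Wee1, Klf10 and the further markers were named after their values were seen. Figures were drawn with matplotlib 3.10.9.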

Additional observations from a re-analysis of the deposited data

How the results depend on the processing

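The 15 alternatives changed the scaling (quantile, median or 75th percentile of the arrays), the filter (none, or a stricter one that drops a share of 0.5), the handling of several probe sets (their mean), the prior (trended and robust), the weights of arrays, the model (a replicate block), or dropped 1 array. With array weights the calls numbered 5514 over all genes, 4 higher and 2 lower among the clock genes, 1 higher among the other clock factors, 6 higher and 3 lower among the modifiers, and 3 higher and 7 lower among the outputs. Deviations of same-numbered arrays from their group means correlated at 0.121, 0.059 and 0.141, each array best with its own number, a hint from the data and not from the design, and under the rule used here the numbers do not pair the arrays. With the replicate number as a block, 1568 genes passed over all, 2 clock genes were higher and 0 lower, 2 modifiers and 1 output were higher, and Huwe1, Sirt1 and Hdac3 did not pass (adjusted p = 0.0678, 0.0562 and 0.0548), while Cd8b1 did (0.0312). The modifiers had 2 lower with median centring, and 2 higher and 2 lower with centring on the 75th percentile. With the stricter filter 1 output was higher. With 1 array left out, calls ranged from 500 to 3325 over all genes, 0 to 2 higher and 0 to 2 lower among the clock genes, 1 to 5 and 0 to 2 among the modifiers, and 0 to 2 and 1 to 6 among the outputs; the cause was not tested. Differences near 0 changed sign. Cry2 stood at -0.07, -0.02 and -0.05 with quantile, median and 75th percentile scaling, and ranged from -0.10 to 0.13 with 1 array left out. Cd79b stood at -0.03, -0.02 and -0.04 with these scalings and -0.02 with array weights, and ranged from -0.09 to 0.08. S100a9 stood at 0.05 with array weights and ranged from -0.08 to 0.09, with 0.01 when low arginine replicate 2 was dropped. How far dim levels, such as those of Nr1d1, understate a change was not tested.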
